A study of Homo sapiens with 6 samples.

Results

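Cells that run short of amino acids, or whose endoplasmic reticulum is overloaded with unfolded protein, phosphorylate the translation factor eIF2alpha. Protein synthesis then slows as a whole, while the messenger RNA of the transcription factor ATF4 is translated more. ATF4 pairs with C/EBP and other bZIP proteins and switches on genes that make, import and conserve amino acids, and with lasting stress also genes linked to cell death. Myeloma cells secrete large amounts of immunoglobulin, and they are known to depend on this response. The 10 genes described here are ATF4 and 9 of its known targets: the transcription factor DDIT3 (CHOP), the pseudokinase TRIB3, the biosynthetic enzymes ASNS, PSAT1 and PHGDH, the transporter subunits SLC7A11 and SLC3A2, the glutathione-degrading enzyme CHAC1, and the phosphatase subunit PPP1R15A (GADD34). They were taken as a fixed list of names, chosen with earlier results of these data known. Every probe set whose platform annotation gives a single gene was matched to them by Entrez identifier, which found 16 probe sets for all 10 genes among 54613 probe sets other than controls, which name 19777 genes singly. A further probe set that names PHGDH together with MZT2A and MZT2B was left out.

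The cells were JJN3, an established human myeloma line. In 1 group (scrambled shRNA, 3 arrays) they had been transduced with virus carrying a scrambled short hairpin RNA that has no specific target, and in the other (CKS1B shRNA, 3 arrays) with virus carrying a hairpin against CKS1B, a small protein that binds cyclin-dependent kinases and helps the SKP2 ubiquitin ligase recognise p27. All cells had therefore been transduced and carried a hairpin, and an untransduced group was not analysed here. Both groups are of a single cell line, and the labels give neither the hairpin's target sequence, nor the time after transduction, nor the culture medium. Arrays are named here by the letter A, B or C that opens their titles, and arrays of the same letter have consecutive numbers there. The title of scrambled array B also has the word "poly". Neither the letters nor this word is explained. Separate cultures are not stated, so the p-values cover the spread among these arrays alone, which may be technical.

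Values are MAS5 signals on a linear scale, in arbitrary units. Every difference is a CKS1B shRNA level less a scrambled level, after log2(value + 16), a scale on which the change of dim probe sets is understated. CKS1B itself read 8266, 8441 and 7294 with the scrambled hairpin and 481, 269 and 828 with its own, a difference of -4.02 (SE 0.44, limma adjusted p = 0.122) and of -3.63 without CKS1B shRNA array B (limma adjusted p = 3.15e-05). That array differed from the rest. The ratio of its 3' to its 5' actin control probe set was 12.4, against 1.05 to 2.93 elsewhere, and its log2 values had an SD of 1.61 where the others had 1.83 to 2.24. The correlation of CKS1B shRNA array B with the others over all probe sets was 0.577 to 0.610, and that among the others 0.879 to 0.958. Differences are therefore given for 6 arrays and for the 5 arrays without CKS1B shRNA array B. CKS1B shRNA array C, which had the actin ratio of 2.93, remains among these 5. Of the plasma cell markers, IRF4 read 7783 to 10257, XBP1 5375 to 7779, PRDM1 2724 to 3693 and MAF 6289 to 8006 on the scrambled arrays, while SLAMF7 read 63.2 to 145. Among markers of other cell types, the B cell marker MS4A1 (CD20) read 5426 to 7996 there, but PAX5, also of B cells, read 42.9 to 183.5. Of the epithelial markers, EPCAM read 1542 to 2188, but KRT19 read 12.7 to 196.6 and CDH1 48.8 to 190.5. The monocyte marker CD14 read 8.2 to 73.3. The arrays read RNA pooled from all cells of a culture, so fewer expressing cells and less RNA per cell cannot be told apart.

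ATF4 and its partners act through a composite C/EBP-ATF element, and the promoters of 2 members that hold its core letters are shown, with that of PPP1R15A, which holds a related element, because such elements are the known route from ATF4 to its targets. The letters searched were TGATGNAA on both strands, in windows from 250 bases before to 50 bases after each annotated transcript start (RefSeq, GRCh38.p14). Such windows were at hand for 9 members, 16 windows in all. ASNS and CHAC1 each had a match before the start, and 1 of 3 SLC3A2 windows had a match after its start. Among all 35116 windows, 3.62% held a match. In PPP1R15A the cyclic AMP response element letters TGACGTCA, to which ATF-family proteins also bind, were found before the start, and 1.85% of all windows held these. The capitals mark the match, which begins 68 bases before the start in ASNS, 209 in CHAC1 (where it reads as the opposite strand) and 58 in PPP1R15A. The stretches are chr7:97872439-97872506 (minus strand), chr15:40953232-40953299 (plus strand) and chr19:48872333-48872400 (plus strand).
ASNS: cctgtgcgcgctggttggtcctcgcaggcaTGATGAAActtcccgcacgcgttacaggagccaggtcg
CHAC1: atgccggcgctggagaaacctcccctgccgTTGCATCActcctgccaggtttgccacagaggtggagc
PPP1R15A: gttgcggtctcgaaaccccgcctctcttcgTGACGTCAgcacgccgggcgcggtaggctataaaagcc
A match is a description of the letters and was not tested as a binding site here.

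The comparison asks whether transcripts of this response differ when CKS1B is lowered. With 6 arrays, 0 of the 16 member probe sets passed an adjusted p of 0.05 in limma, and 0% of all 54613 probe sets did. At an unadjusted p under 0.05 there was 1 member probe set, ASNS 205047_s_at, and 965 probe sets in all. In 0 of the 16 did all 3 CKS1B shRNA arrays lie above, or all below, the scrambled arrays, where 4.17% of all probe sets lay above and 3.60% below. Without CKS1B shRNA array B, again 0 of the 16 passed, with 0.0201% of all probe sets passing. In this fit 2 of the 16 member probe sets, both of PSAT1, had an unadjusted p under 0.05, as did 3091 of all 54613 probe sets. With these 5 arrays the groups did not overlap in 5 member probe sets. In 3 of 16 (18.8%) the CKS1B shRNA arrays were lower, against 13.7% of all probe sets, and in 2 of 16 (12.5%) higher, against 7.99%.

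**Figure D1:**
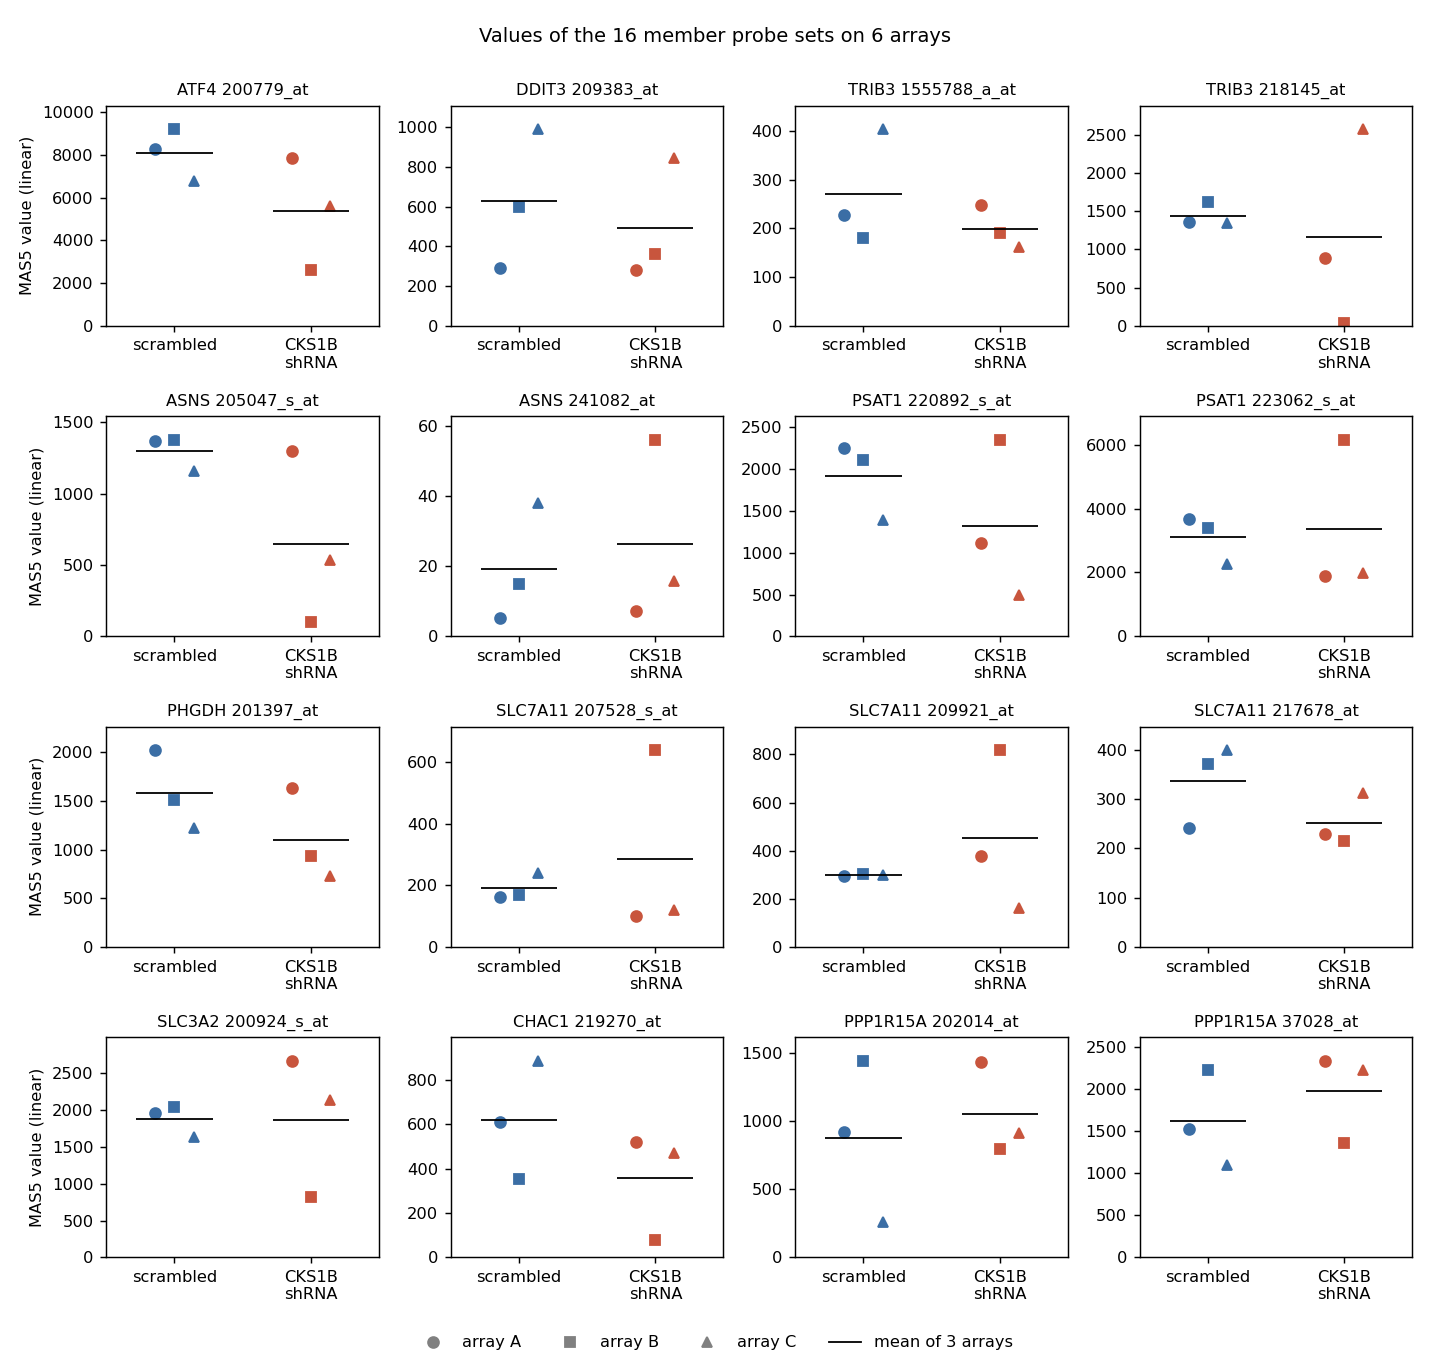
MAS5 values (linear, each panel with its own axis from 0) of the 16 member probe sets on the 3 scrambled arrays (blue) and the 3 CKS1B shRNA arrays (red). The marker shape gives the letter in the array's title and the line the mean of 3 arrays. The groups overlap in all 16 panels, and CKS1B shRNA array B (red square) is the lowest of the 6 arrays for TRIB3 218145_at, at 37.3, and the highest for PSAT1 223062_s_at, at 6151.

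ATF4, the transcription factor at the head of the response, read 8288, 9208 and 6804 with the scrambled hairpin (arrays in the order A, B, C here and below). It read 7885, 2599 and 5631 with the CKS1B hairpin. Array A lay inside the scrambled range and arrays B and C below it. The difference was -0.72 (SE 0.56, 95% interval -1.96 to 0.52, limma adjusted p = 1.0). Without array B it was -0.27 (95% interval -0.82 to 0.28, limma adjusted p = 0.957). ATF4 is regulated largely at translation, and these arrays measure its transcript only.

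DDIT3, a bZIP factor that ATF4 induces and that is linked to death of stressed cells, had its lowest values on the A arrays of both groups. The scrambled values were 293, 596 and 989 and the CKS1B shRNA values 281, 360 and 844. The groups overlapped, and 2 of the 3 CKS1B shRNA arrays lay within it. The difference was -0.33 (SE 0.55, 95% interval -1.54 to 0.88, limma adjusted p = 1.0), and -0.19 without array B (95% interval -1.23 to 0.86, limma adjusted p = 0.978).

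TRIB3, a pseudokinase that DDIT3 and ATF4 induce and that restrains ATF4, was the most uneven of the members. Its probe set 218145_at read 1358, 1620 and 1351 on the scrambled arrays. The CKS1B shRNA arrays read 890, 37.3 and 2574, that is 61.7%, 2.58% and 178% of the scrambled mean. Arrays A and B lay below all scrambled arrays and array C above them. The difference of -1.54 (SE 1.07, limma adjusted p = 1.0) was 0.08 without array B (95% interval -0.68 to 0.83, limma adjusted p = 0.988). The other probe set, 1555788_a_at, read 228, 180 and 403 on the scrambled arrays and 247, 190 and 161 on the CKS1B shRNA arrays. It was lowest on CKS1B shRNA array C, where 218145_at was highest, and gave differences of -0.35 with 6 arrays and -0.33 without array B.

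ASNS makes asparagine from aspartate and glutamine, and its element is printed above. Probe set 205047_s_at read 1368, 1376 and 1156 on the scrambled arrays, averaging 1300.2 ± 125 (SD, n = 3). With the CKS1B hairpin it read 1298, 99.4 and 536, giving a mean of 644 ± 606.5 (SD, n = 3). Array A was at 99.8% of the scrambled mean, array B at 7.65% and array C at 41.2%, so only arrays B and C lay below the scrambled range. The difference was -1.59 (SE 0.71, 95% interval -3.15 to -0.02), with an unadjusted p of 0.0481 and an adjusted p of 1.0 in limma. Without array B it was -0.62 (SE 0.34, 95% interval -1.34 to 0.09, limma adjusted p = 0.911). Probe set 241082_at was dim, at 5.2 to 37.9 on the scrambled arrays and 7.1 to 56.0 on the CKS1B shRNA arrays, and was the only member probe set below the median mean log2 value of all probe sets. Its difference of 0.19 became -0.28 without array B.

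PSAT1 and PHGDH catalyse consecutive steps of serine synthesis from a glycolytic intermediate, with PHGDH acting first. CKS1B shRNA arrays A and C gave lower PSAT1 values than every scrambled array through both of its probe sets, and higher on array B. Probe set 220892_s_at read 2248, 2109 and 1398 with the scrambled hairpin and 1116, 2352 and 493 with the CKS1B hairpin. Its difference was -0.77 with 6 arrays (SE 0.53, limma adjusted p = 1.0). Without array B it was -1.32 (SE 0.34, 95% interval -2.04 to -0.60), with an unadjusted p of 0.00141 and an adjusted p of 0.596 in limma. Probe set 223062_s_at read 3672, 3388 and 2268 on the scrambled arrays and 1899, 6151 and 1994 on the CKS1B shRNA arrays. Its difference was -0.09 with 6 arrays (SE 0.52, limma adjusted p = 1.0) and -0.64 without array B (95% interval -1.21 to -0.07, limma adjusted p = 0.851). The suffix _s_at marks probe sets that can bind more than 1 transcript. Values that high on array B came with its actin 3'/5' ratio of 12.4, and the part of RNA quality in this result was not tested.

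PHGDH read 2021, 1514 and 1221 on the scrambled arrays, and 1637, 937 and 733 with the CKS1B hairpin. Arrays B and C lay below every scrambled array, and array A within the scrambled range at 103% of its mean. The group means were 1585 ± 405 and 1102.5 ± 474 (SD, n = 3 each). The difference was -0.57 with 6 arrays (SE 0.41, 95% interval -1.47 to 0.34, limma adjusted p = 1.0). It was -0.49 without array B (95% interval -1.21 to 0.22, limma adjusted p = 0.942).

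**Figure D2:**
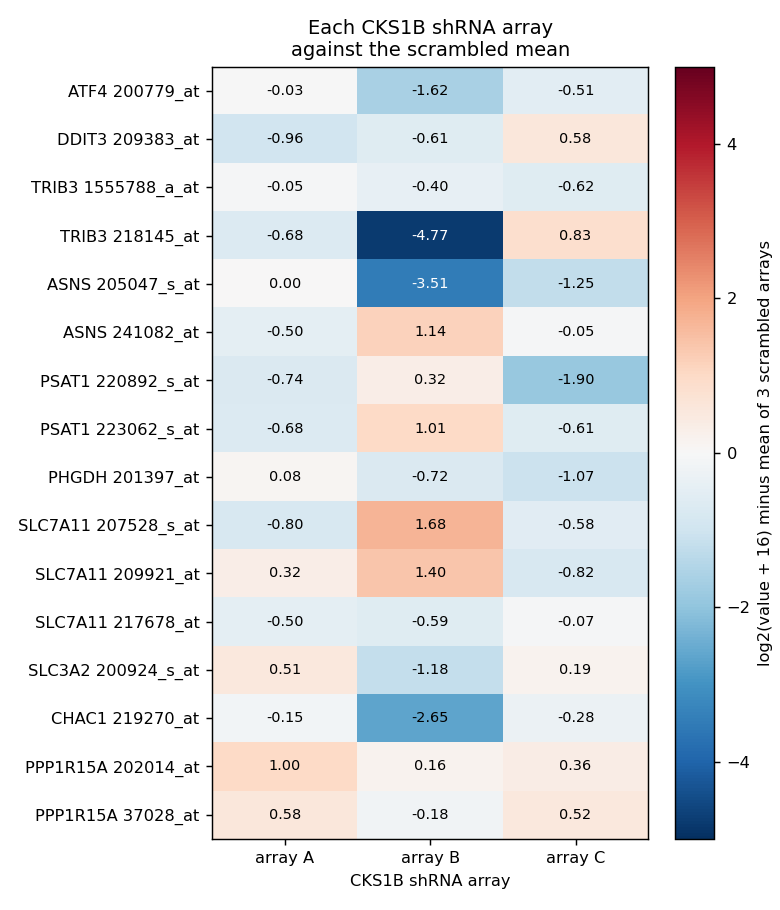
Log2(value + 16) of the 16 member probe sets on each CKS1B shRNA array, minus the mean of the 3 scrambled arrays (blue lower, red higher). PSAT1 223062_s_at stands at -0.68 on array A, 1.01 on array B and -0.61 on array C, and PPP1R15A 37028_at at 0.58, -0.18 and 0.52.

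SLC7A11 and SLC3A2 are the light and heavy subunits of system xc-, which imports cystine in exchange for glutamate and so feeds glutathione synthesis; SLC3A2 also serves other amino acid transporters. The 3 probe sets of SLC7A11 did not move together. Probe set 209921_at read 296.5, 302 and 299 on the scrambled arrays, within 2.65 units (SD, n = 3), and 378, 817 and 162 with the CKS1B hairpin. Array A and array B were above all scrambled arrays and array C below them, and the difference was 0.30 (SE 0.56, limma adjusted p = 1.0). Probe set 207528_s_at read 163, 169 and 239.5 on the scrambled arrays and 101, 638 and 120 on the CKS1B shRNA arrays. Here arrays A and C were lowest and array B was at 334% of the scrambled mean, which gave a difference of 0.10 with 6 arrays and -0.69 without array B (95% interval -1.83 to 0.45, limma adjusted p = 0.947). Probe set 217678_at read 241, 371 and 399 on the scrambled arrays and 229, 214 and 313 on the CKS1B shRNA arrays, a difference of -0.38. These are dim values, and without array B all 3 probe sets had negative differences, of -0.69, -0.25 and -0.28.

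SLC3A2 read 1966, 2042 and 1628 on the scrambled arrays. It read 2667, 814 and 2131 with the CKS1B hairpin. Arrays A and C were above every scrambled array and array B below all of them. The means of 1879 ± 220.5 and 1871 ± 953.5 (SD, n = 3 each) were close, but the 95% interval of the difference ran from -1.20 to 0.87, around a value of -0.16 (limma adjusted p = 1.0). Without array B the difference was 0.35 (95% interval -0.19 to 0.89, limma adjusted p = 0.942).

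CHAC1 breaks glutathione down inside the cell. It read 611, 353 and 884 on the scrambled arrays and 517.5, 78.4 and 471 with the CKS1B hairpin. Arrays A and C lay within the scrambled range, and array B was at 12.7% of the scrambled mean. The difference of -1.03 (SE 0.67, 95% interval -2.50 to 0.44, limma adjusted p = 1.0) was -0.22 without array B (95% interval -1.02 to 0.59, limma adjusted p = 0.965).

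PPP1R15A directs protein phosphatase 1 to eIF2alpha and so closes the feedback loop of the response. By the brightest probe set, PPP1R15A and SLC7A11 read higher with the CKS1B hairpin over 6 arrays, and PPP1R15A, SLC3A2 and TRIB3 over 5. Probe set 37028_at read 1527, 2232 and 1099 on the scrambled arrays and 2336, 1366 and 2233 on the CKS1B shRNA arrays. Arrays A and C were above the scrambled arrays, array C only just, at 2232.6 against 2231.5 on scrambled array B. The difference was 0.31 with 6 arrays (SE 0.41, limma adjusted p = 1.0) and 0.55 without array B (95% interval -0.08 to 1.18, limma adjusted p = 0.908). Probe set 202014_at read 922, 1442 and 263 on the scrambled arrays and 1434, 795 and 917 on the CKS1B shRNA arrays. The lowest value, 263 on scrambled array C, was on the array that set the sign: the difference was 0.51 with it (0.68 without CKS1B shRNA array B) and -0.18 without it. Without that array the difference of 37028_at was 0.06.

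Taking each member by its brightest probe set, 8 of 10 were lower and 2 higher with 6 arrays, with a median difference of -0.45. Over all 19777 genes taken the same way, 47.4% were lower and the median was 0.04. These include dim genes, while the brightest probe set of every member was above the median mean log2 value. Over the 12663 genes with a probe set at or above that value, the median difference with 6 arrays was -0.078. Without array B, 7 of 10 members were lower with a median of -0.24, and 58.8% of all genes were lower with a median of -0.11. On CKS1B shRNA array A the members' median lay -0.01 from the scrambled mean, on array B -0.95 and on array C -0.40, where the medians of all genes were -0.14, 0.50 and -0.07. On array B, 6 of 10 members lay below every scrambled array and 2 above, against 29.4% and 49.4% of all genes. Dim genes are included in these shares, which were not taken for bright genes alone. On array A, 3 lay below and 3 above (all genes 31.1% and 19.3%), and on array C 5 below and 3 above (29.7% and 25.3%). Members were not independent replicates, and no test was made of these counts.

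**Figure D3:**
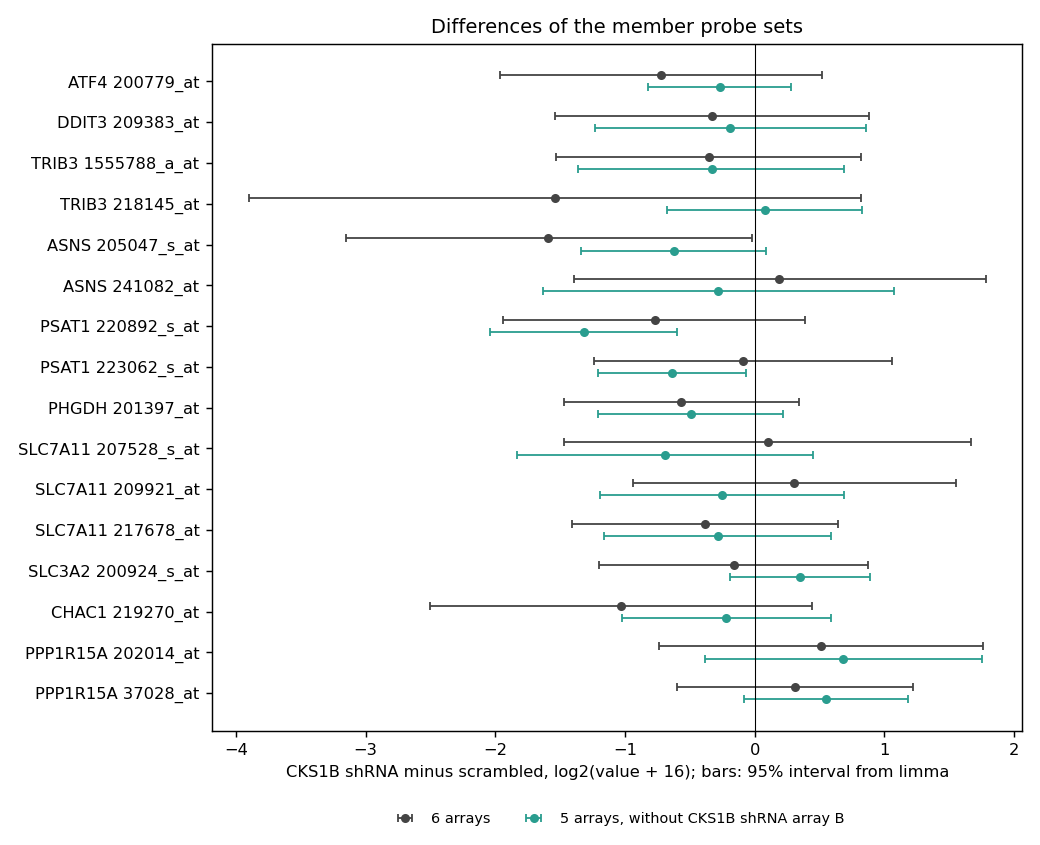
Differences (CKS1B shRNA minus scrambled, log2(value + 16)) of the 16 member probe sets with 95% intervals from limma, with 6 arrays (grey) and without CKS1B shRNA array B (green). With 5 arrays the interval for PSAT1 220892_s_at is -2.04 to -0.60, and the interval for TRIB3 218145_at shortens from -3.90 to 0.82 down to -0.68 to 0.83.

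Other genes of the response were taken from 8 lists of 76 genes, of which 74 had a probe set, 162 probe sets in all. With 6 arrays 0 of the 162 passed in limma and 3 had an unadjusted p under 0.05, and with 5 arrays 0 passed and 10 had. Of all 54613 probe sets, 965 had an unadjusted p under 0.05 with 6 arrays and 3091 with 5. The groups did not overlap in 9 (5.56%, higher) and 7 (4.32%, lower) with 6 arrays, near the 4.17% and 3.60% of all probe sets. Without array B these were 21 (13%, higher, against 7.99%) and 15 (9.26%, lower, against 13.7%). By the brightest probe set, 56 of 74 genes were lower and 18 higher with 6 arrays, and 36 lower and 38 higher without array B. Of all genes, dim ones included, 47.4% were lower with 6 arrays and 58.8% without array B. Genes named below are the 2 of smallest p in each list, with 6 arrays and without array B, and their adjusted p in limma was 1.0 with 6 arrays and, over all their probe sets named below, 0.701 to 0.992 without array B.

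Among the amino acid transporters, SLC38A2 (SNAT2), which imports small neutral amino acids and is a known target of the amino acid response, had no overlap between the groups in any of its 3 probe sets, all higher with the CKS1B hairpin. Probe set 222982_x_at read 4787, 5555 and 3939 on the scrambled arrays and 7514, 8494 and 9826 on the CKS1B shRNA arrays. The difference was 0.86 with 6 arrays (SE 0.49, limma adjusted p = 1.0) and 0.86 without array B (SE 0.26, limma adjusted p = 0.760). Probe sets 218041_x_at and 220924_s_at gave 0.79 and 1.04 with 6 arrays and 0.55 and 0.68 without array B; their suffixes mark probe sets that may bind related transcripts, and these probe sets are of 1 gene and not independent. Of the 8 transporters, 5 were lower and 3 higher with 6 arrays (median -0.37) and 4 and 4 without array B (median 0.03). SLC43A1, which carries large neutral amino acids, differed by -1.52 and SLC7A1, which carries cationic ones, by -1.11 with 6 arrays, values that were -0.10 and -0.14 without array B. SLC1A4, a carrier of alanine and serine, differed by -0.22 with 6 arrays and 0.33 without array B through probe set 209610_s_at.

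Of 6 transcription factors linked to ATF4, 5 were lower with 6 arrays (median -0.58) and 4 without array B (median -0.37). ATF3, a bZIP factor induced by ATF4, read 591, 626 and 903 on the scrambled arrays and 419, 717 and 242.5 on the CKS1B shRNA arrays. Arrays A and C were below the scrambled range and array B within it. The difference was -0.71 with 6 arrays and -1.08 without array B (SE 0.36, limma adjusted p = 0.791). CEBPG, a partner of ATF4 on the composite element, differed by -0.72 with 6 arrays and -0.50 without array B. JDP2, a bZIP repressor, differed by -0.51 with 6 arrays and -0.97 without array B through probe set 239085_at.

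Of the 9 eIF2alpha kinases and other regulators of translation, 8 were lower with 6 arrays (median -0.28) and 7 without array B (median -0.24). EIF2AK2 (PKR), the kinase activated by double-stranded RNA, read 976, 829 and 785 on the scrambled arrays and 487.5, 472 and 295 on the CKS1B shRNA arrays through probe set 213294_at, with no overlap. Its difference was -1.15 without array B (SE 0.33, limma adjusted p = 0.701) and -1.04 with 6 arrays. The probe set brightest over 6 arrays, 204211_x_at, gave -0.19 with 6 arrays and -0.24 without array B, with the groups overlapping. EIF2B5, a subunit of the factor that recharges eIF2, differed by -0.66 and EIF2AK4 (GCN2), the sensor of uncharged tRNA, by -0.84 with 6 arrays, and by -0.30 and -0.24 without array B. EIF2AK3 (PERK), the sensor in the endoplasmic reticulum, differed by -0.09 with 6 arrays and -0.51 without array B.

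Of 9 other enzymes of amino acid synthesis and one-carbon metabolism, 7 were lower with 6 arrays (median -0.28) and 2 without array B (median 0.11). ALDH1L2, a mitochondrial folate enzyme, read 483, 512 and 422 on the scrambled arrays and 330, 154 and 262 on the CKS1B shRNA arrays. Through this probe set, 231202_at, all 3 CKS1B shRNA arrays were below all scrambled arrays. The difference was -0.94 with 6 arrays and -0.65 without array B (limma adjusted p = 0.914). In its dimmer probe sets 1556841_a_at and 1559393_at the groups overlapped. These gave 0.34 and 0.04 with 6 arrays and -0.56 and -0.19 without array B. PSPH, which completes serine synthesis after PHGDH and PSAT1, read 532, 513 and 285 on the scrambled arrays and 580, 1217.5 and 489 on the CKS1B shRNA arrays, a difference of 0.70, while its probe set 205048_s_at gave -0.72. Without array B these were 0.31 and -0.12. SHMT2, which converts serine to glycine in mitochondria, differed by -0.22 with 6 arrays and 0.28 without array B.

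Of 12 aminoacyl-tRNA synthetases and tRNA exporters, 11 were lower with 6 arrays (median -0.61) and 6 without array B (median 0.06). On array B their median lay -1.83 from the scrambled mean, where array A stood at 0.16 and array C at -0.04. LARS1, which charges the leucine tRNA, read 5714, 6799 and 5384 on the scrambled arrays and 4670, 1837 and 2626 on the CKS1B shRNA arrays through probe set 222428_s_at. Its difference was -1.07 with 6 arrays and -0.76 without array B (limma adjusted p = 0.846), while its probe set 217810_x_at gave 0.48 and 0.47, with the groups not overlapping in the opposite direction, and in its probe sets 222427_s_at and 223888_s_at the groups overlapped. TARS1 and NARS1, which charge the threonine and asparagine tRNAs, differed by -1.08 and -0.43 with 6 arrays and by -0.09 and 0.30 without array B.

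Of 10 other stress effectors linked to ATF4, 8 were lower with 6 arrays (median -0.40) and 7 without array B (median -0.22). DDIT4 (REDD1), an inhibitor of mTORC1 signalling, read 1778, 1269 and 2347 on the scrambled arrays and 1224, 1160 and 1099 on the CKS1B shRNA arrays, with no overlap. The difference was -0.58 with and without array B (limma adjusted p = 0.888 without it). PMAIP1 (NOXA), a promoter of apoptosis, differed by -1.03 with 6 arrays and -0.23 without array B. GADD45A, a stress and growth arrest gene, differed by -0.32 with 6 arrays and 0.48 with 5.

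The other arms of the unfolded protein response, run by ATF6 and by IRE1 with XBP1, had 8 of 12 genes lower with 6 arrays (median -0.47) and 4 of 12 without array B (median 0.21). XBP1 differed by -0.75 with 6 arrays and -0.36 without array B. PDIA4, a folding enzyme, differed by -0.52 with 6 arrays and -0.05 without array B through its brighter probe set. PDIA4 208658_at gave 0.03 with 6 arrays and 1.01 without array B (95% interval 0.38 to 1.64, limma adjusted p = 0.746), where both CKS1B shRNA arrays were above all scrambled arrays. SDF2L1 and CRELD2, both of the endoplasmic reticulum, differed by -0.61 and 0.18 with 6 arrays and by 0.64 and 0.63 without array B. Of NRF2 and its targets, the antioxidant programme that also drives SLC7A11, 4 of 8 were lower with 6 arrays (median 0.06) and 2 of 8 without array B (median 0.26). NFE2L2, the gene of NRF2, differed by -0.88 and TXNRD1, thioredoxin reductase, by -0.63 with 6 arrays, and by -0.47 and -0.40 without array B. SRXN1, sulfiredoxin, and KEAP1, the inhibitor of NRF2, differed by 0.26 and -0.09 with 6 arrays and by 0.63 and 0.39 without array B.

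**Figure D4:**
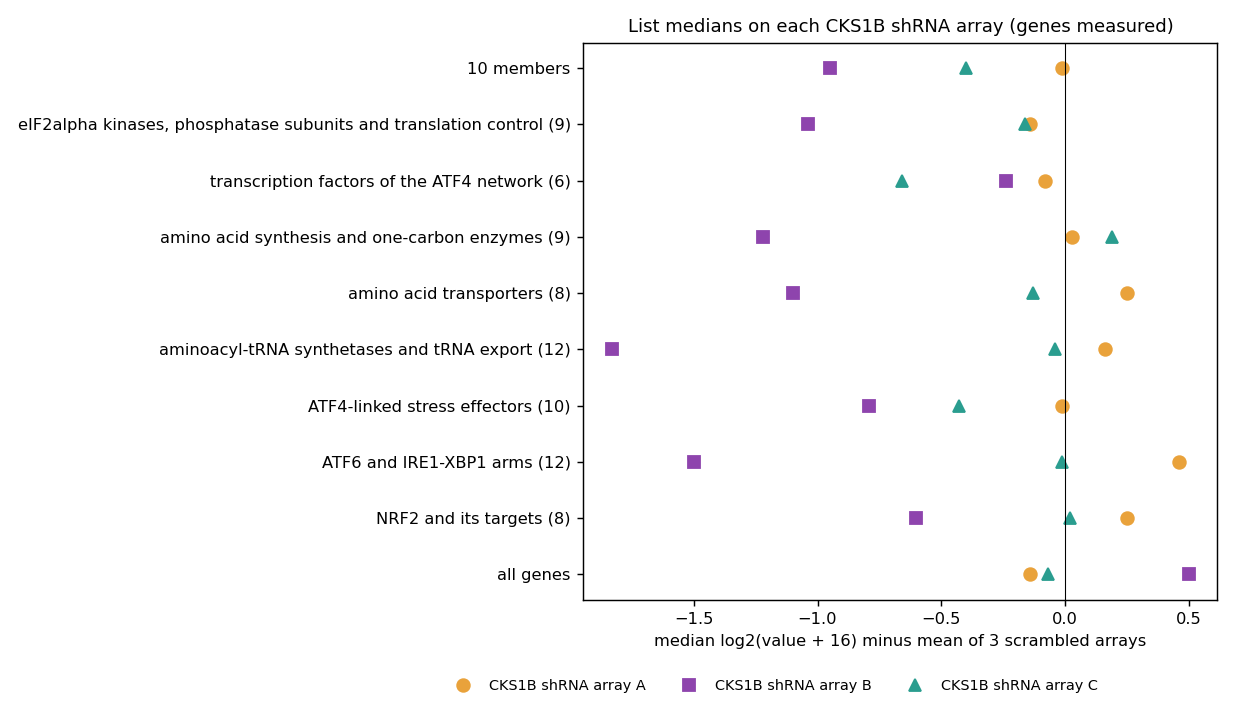
Median over each list, by the brightest probe set of each gene, of log2(value + 16) minus the mean of the 3 scrambled arrays, for CKS1B shRNA arrays A (circles), B (squares) and C (triangles), with the number of genes measured in brackets. On array B the members stand at -0.95 and the aminoacyl-tRNA synthetases at -1.83, while all genes, dim ones included, stand at 0.50. On arrays A and C the members stand at -0.01 and -0.40.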

How the data were processed

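Each of the 6 arrays has a column of deposited intensity values on a linear scale. Per the submitters' processing notes they come from MAS5, whose version and settings the sources used here do not give. Their 2% trimmed mean was 500 on every array to within 0.1. This scaling leaves differences in the spread of values between arrays in place, which can shift bright and dim probe sets in opposite directions. Of 54675 probe sets, 62 controls were left out. Of the rest, 41091 had 1 gene in the platform annotation, 1801 several and 11721 none; symbols were updated through the RefSeq gene table. Values were turned into log2(value + 16) and all probe sets were fitted with limma 3.58.1 (R 4.3.3; lmFit, eBayes with trend), with no filter, block or further normalization, Benjamini-Hochberg adjustment over all of them and a threshold of 0.05. Intervals are limma's 95% intervals. An exact two-sided permutation test for CKS1B gave p = 0.1, the smallest that 6 arrays in these groups allow. A gene's brightest probe set by mean log2 value over the arrays fitted stood for it in counts and medians. List genes were named by a rule: those past the threshold, or else the 2 of smallest p; further probe sets of such a gene were added after their values were seen. The members and lists were chosen with earlier results of these data known. The fit with 6 arrays was tested on simulated data with changes of known size added. The mean estimates came out close to the sizes added, but most changes passed the threshold only at the largest size. The simulated noise was independent, with the same spread for all probe sets of an array, so this is not the power of the fit on the real values. A count of 0 past the threshold does not show that genes did not change. The deviations of same-letter arrays had correlations of 0.403, -0.055 and -0.023 for A, B and C, and those of arrays with different letters -0.359 to 0.226. With so few arrays these values do not settle whether the letters mark pairs. The letters were not used as pairs in the main fit. Python 3.11.15 and matplotlib 3.10.9 made the figures. Alternatives were other pseudocounts, filters, centring, quantile normalization, array weights, eBayes without trend, the letter as a block, another threshold and leaving out arrays.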

Additional observations from a re-analysis of the deposited data

How the results depend on the processing

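Member probe sets had 344 values under the alternatives, of which 300 kept sign and side of the threshold, 41 changed sign and 3 passed the threshold. Many of the 300 could not have changed sign, so this count is not a measure of stability. Another threshold, eBayes without trend and the letter as a block with 6 arrays leave every difference as it was. A filter does the same for the probe sets it keeps. The block without array B repeats the differences without both B arrays. The median over the members ranged from -0.70 to -0.19 when arrays were left out. The number of all probe sets past the threshold was 0 with 6 arrays. It was 86 with array weights, and without CKS1B shRNA array B it was 2 after quantile normalization, 2 with a filter at the median and 395 with the replicate block. Leaving out arrays gave 0 to 16, with 16 without both B arrays. Among members, array weights passed 1, PSAT1 220892_s_at, at -1.57 (limma adjusted p = 0.0284). The replicate block without array B passed 2, PSAT1 220892_s_at at -1.24 (limma adjusted p = 0.00485) and PPP1R15A 202014_at at 1.18 (limma adjusted p = 0.022), and 1 probe set of the lists, in a fit with 1 residual degree of freedom. With 6 arrays the replicate block, which cannot change a difference because each letter occurs once per group, left the members' median at -0.45. It passed 0 of the member probe sets. The titles do not explain the letters, so whether this block stands for a pairing is not known. CKS1B was at -3.62 with array weights, and without array B at -3.69 after quantile normalization, -3.59 with the block and -3.63 with the filter. It was -4.47 to -3.59 with arrays left out.

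Centring turned ASNS 241082_at to -0.04 and SLC7A11 207528_s_at to -0.13, and quantile normalization turned PSAT1 223062_s_at to 0.22. Array weights turned DDIT3 to 0.30, TRIB3 218145_at to 0.05, SLC7A11 207528_s_at to -0.45 and 209921_at to -0.33, and SLC3A2 to 0.17. Without array B, TRIB3 218145_at was 0.08 after quantile normalization, 0.16 with the block and 0.08 with the filter. SLC7A11 207528_s_at was then -0.48, -0.76 and -0.69, SLC7A11 209921_at -0.07, -0.24 and -0.25, and SLC3A2 0.31, 0.41 and 0.35, and the block gave ASNS 241082_at -0.32. With arrays left out, signs changed within these ranges: DDIT3 -0.78 to 0.07, TRIB3 1555788_a_at -0.59 to 0.09 and 218145_at -2.77 to 0.16, ASNS 241082_at -0.32 to 0.67, PSAT1 223062_s_at -0.64 to 0.34, SLC7A11 207528_s_at -0.76 to 0.60 and 209921_at -0.25 to 0.86, SLC3A2 -0.50 to 0.41, and PPP1R15A 202014_at -0.18 to 1.18 and 37028_at -0.05 to 0.81. The cause of these changes was not tested. The number of arrays limits the precision, and dim probe sets such as ASNS 241082_at have little signal over background.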
